A study of Malus domestica with 36 samples.

Results

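The genes described are the alcohol dehydrogenase ADH1-1 (LOC103428551), the haemoglobin gene GLB1 and the glutamate decarboxylase gene GAD1 of apple, 3 of the 57423 genes in the table, taken by name and followed across all 12 groups of peel libraries. All 3 were among the 32923 genes tested, which had at least 1 FPKM in at least 3 libraries. FPKM counts the sequenced fragments of a gene per kilobase of its length, relative to the sequencing total of its library. RNA came from the peel of 'Granny Smith' apples, a green cultivar, and every group had 3 libraries labelled as biological replicates, 36 in all. The groups cross 3 storage regimes, labelled RA, ULO and DCA_CF, with the time points T1 and T2, each with or without the tag SL. ULO fruit were kept at 1% oxygen and DCA_CF fruit, labelled DCA in the protocol, below 1% oxygen. The labels give no oxygen level for RA, no meaning of SL and no length of storage for T1 or T2, so these names are used as they stand. In what follows, low oxygen names the storage regimes ULO and DCA_CF. The labels do not say whether fruit with the SL tag were still at that oxygen when sampled. All groups share cultivar and tissue, and the labels do not say how many apples each library stands for.

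When oxygen limits respiration, plant cells make ATP by glycolysis and restore NAD+ by fermentation. Alcohol dehydrogenase carries out the last step of ethanol fermentation, the reduction of acetaldehyde to ethanol. Plant haemoglobins of the hypoxia-responsive class bind oxygen tightly and convert nitric oxide to nitrate, a role known mainly from barley and Arabidopsis. Glutamate decarboxylase turns glutamate into GABA (gamma-aminobutyric acid) and consumes a proton, and GABA accumulates in many plant tissues under low oxygen, apple fruit included. Transcripts of all these kinds are widely used as markers of low oxygen in plants.

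Library totals were 689868 to 790211 FPKM and 33512 to 37276 genes per library were above 0. As no read totals were at hand, the depth behind each value is unknown. Of the genes of the surface layers of apple fruit, the lipid transfer protein gene MALD3 ranged over the group means from 1856 to 32820 FPKM, the oxidosqualene cyclase genes OSC1 and OSC3 from 187 to 818 and from 107 to 430.0 FPKM, and the lipase gene GDSL from 5.11 to 198 FPKM. These peel genes were thus present in every group and moved between groups, and their part in the results was not tested. MALD3 and GDSL followed GAD1 and OSC3 followed GLB1, as given below, so they did not all move together. Other genes planned as markers of the surface layers and of green tissue were not read out. In bulk peel, fewer cells of a type and less RNA per cell cannot be told apart.

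Only GAD1 was higher in both low oxygen regimes than in RA in every state compared. In limma's test over all genes, GAD1 was higher in low oxygen than in RA in 8 of 8 comparisons, in which 44.7% to 69.4% of all genes tested were called in either direction. GLB1 was higher in 2 and lower in 6 of 8. ADH1-1 was higher in 1, lower in 6 and not called in 1 of 8. The rises of GLB1 and ADH1-1 in low oxygen were all at T1 without SL, and at T2 or with SL both genes were below RA in each of the 6 comparisons.

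**Figure D1:**
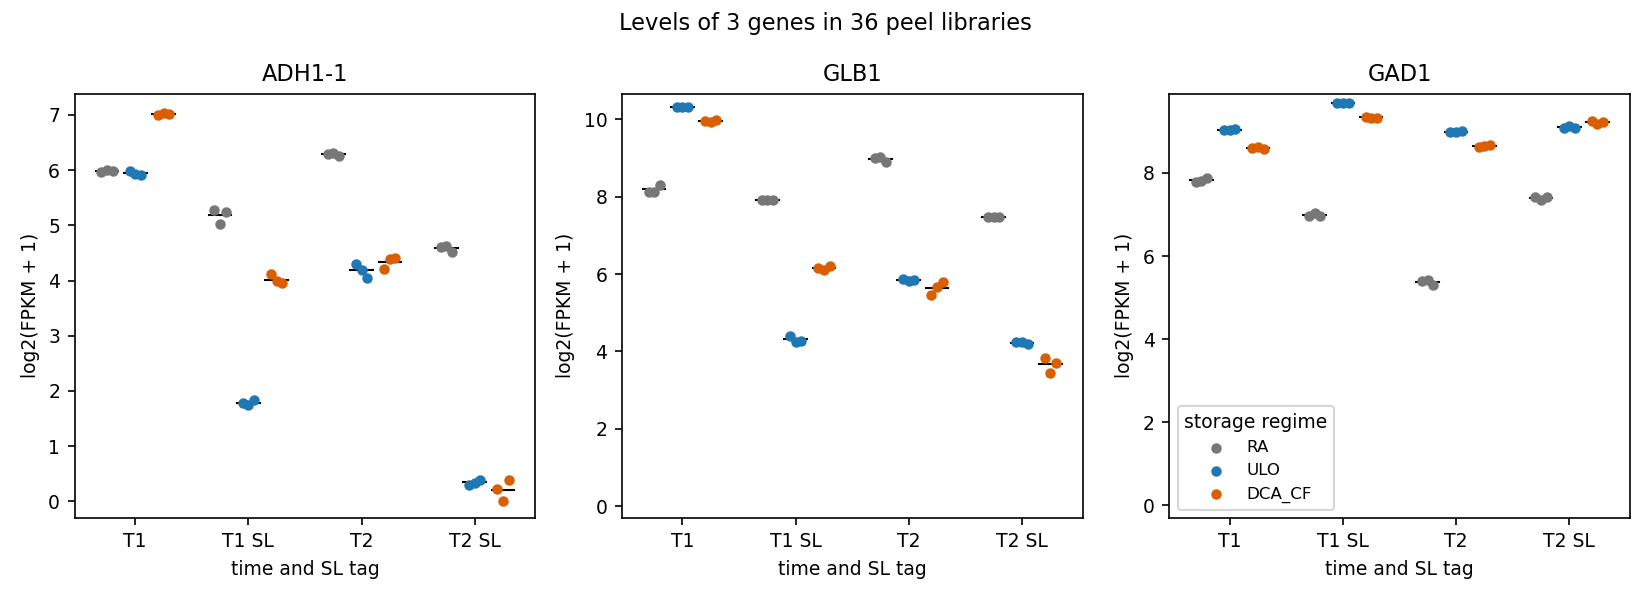
Each point is a library and each short line a group mean, with log2(FPKM + 1) on the vertical axis and the 4 combinations of time and SL tag on the horizontal axis, coloured by storage regime. ADH1-1 was between 0 and 0.31 FPKM in the low oxygen regimes at T2 with SL. GLB1 reached 1278 FPKM in ULO at T1, and GAD1 was lowest in the T2 RA libraries at 38.8 to 42.1 FPKM.

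ADH1-1 stood at 61.3, 62.8 and 62.7 FPKM in the T1 RA libraries and at 62.5, 60.3 and 59.3 FPKM in ULO. In DCA_CF at T1 it stood at 127.6, 130.4 and 128.3 FPKM, its highest group. RA and ULO overlapped at this time, and every DCA_CF library lay above both. With SL at T1 the levels were 37.9, 31.6 and 36.7 FPKM in RA. The DCA_CF libraries with SL were at 16.3, 14.8 and 14.5 FPKM and those of ULO at 2.43, 2.37 and 2.57 FPKM. With SL the 3 regimes therefore formed separate steps, with RA above DCA_CF and DCA_CF above ULO.

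At T2 without SL, ADH1-1 stood at 77.8, 78.2 and 75.6 FPKM in RA. It was at 18.6, 17.4 and 15.5 FPKM in ULO and at 17.5, 19.8 and 20.3 FPKM in DCA_CF. The low oxygen regimes overlapped each other and lay below RA. At T2 with SL, RA held 23.4, 23.7 and 21.9 FPKM. ULO held 0.23, 0.26 and 0.31 FPKM, and DCA_CF held 0.172, 0 and 0.302 FPKM. In those 6 low oxygen libraries the gene was close to or at 0, so their values carry little weight for ratios, and a listed 0 is not proof of absence.

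In order of the group means, ADH1-1 ran from 128.8 ± 1.44 FPKM (SD, n = 3) in T1 DCA_CF through 77.2 ± 1.39 in T2 RA, 62.3 ± 0.828 in T1 RA and 60.7 ± 1.66 in T1 ULO. There followed 35.4 ± 3.37 FPKM in T1 RA with SL, 22.99 ± 0.996 in T2 RA with SL, 19.2 ± 1.48 in T2 DCA_CF, 17.2 ± 1.54 in T2 ULO and 15.2 ± 0.955 in T1 DCA_CF with SL. The lowest means were 2.46 ± 0.104 FPKM in T1 ULO with SL and those of the T2 low oxygen groups with SL. Neighbours in this order whose libraries overlapped were T1 RA and T1 ULO, T2 DCA_CF and T2 ULO, T2 ULO and T1 DCA_CF with SL, and the T2 low oxygen groups with SL. By mean level, ADH1-1 ranked 739th of 57423 genes in T1 DCA_CF, 30438th in T2 ULO with SL and 32145th in T2 DCA_CF with SL.

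GLB1 was the most abundant of the 3 genes at T1 without SL. It stood at 279, 277 and 314 FPKM in RA, at 1278, 1273 and 1275 FPKM in ULO and at 999, 974 and 1016 FPKM in DCA_CF. The ULO libraries lay above all DCA_CF libraries, and these above all RA libraries. With SL at T1 the order was turned over. RA held 239, 240.5 and 241 FPKM, DCA_CF held 69.95, 68.0 and 72.6 FPKM, and ULO held 20.2, 18.1 and 18.4 FPKM. ULO thus held the highest GLB1 of the 3 regimes without SL and the lowest with it.

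At T2 without SL, GLB1 stood at 512, 523 and 479 FPKM in RA. It was at 57.4, 55.6 and 56.5 FPKM in ULO and at 42.9, 49.9 and 54.6 FPKM in DCA_CF. At T2 with SL the levels were 175, 176 and 177 FPKM in RA, 18.0, 17.97 and 17.3 FPKM in ULO and 13.2, 9.93 and 11.9 FPKM in DCA_CF. RA was far above both low oxygen regimes in either state, with no overlap.

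The group means of GLB1 were 1275 ± 2.31 FPKM (SD, n = 3) in T1 ULO, 996 ± 21.1 in T1 DCA_CF, 505 ± 23.1 in T2 RA, 290.1 ± 20.5 in T1 RA, 240.4 ± 1.18 in T1 RA with SL and 176 ± 0.829 in T2 RA with SL. The remaining 6 groups, all of low oxygen, ran from 70.2 ± 2.29 FPKM in T1 DCA_CF with SL down to 11.7 ± 1.64 in T2 DCA_CF with SL. No neighbours in the order overlapped, but some gaps were small. The lowest T1 ULO library with SL was at 18.07 FPKM and the highest T2 ULO library with SL at 18.03. The difference between those groups was not called (limma adjusted p = 0.437). The highest mean was 109 times the lowest. GLB1 ranked 28th of 57423 genes in T1 ULO, and already 254th in T1 RA, so its level in the RA fruit was itself high.

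GAD1 stood at 221, 223 and 233 FPKM in T1 RA, at 522, 519 and 530 FPKM in ULO and at 385, 396 and 379 FPKM in DCA_CF. With SL at T1 it was at 125, 130 and 124 FPKM in RA, 826, 818 and 820 FPKM in ULO and 653, 644 and 638 FPKM in DCA_CF. In either state the order was RA, DCA_CF and ULO from low to high, with no overlap. At T2 without SL, RA held 40.9, 42.1 and 38.8 FPKM, the lowest group of all. ULO held 507, 505.5 and 512.5 FPKM and DCA_CF held 392, 398 and 409 FPKM. Both low oxygen regimes thus stayed near their T1 levels while RA dropped.

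At T2 with SL, GAD1 stood at 170, 163 and 170 FPKM in RA. It was at 542, 559 and 540 FPKM in ULO and at 606, 583 and 602 FPKM in DCA_CF. Here DCA_CF lay above ULO, the reverse of the other 3 states. The 8 low oxygen means, from 387 ± 8.37 FPKM (SD, n = 3) in T1 DCA_CF to 821 ± 4.55 in T1 ULO with SL, all lay above the 4 RA means, the highest of which was 225 ± 6.38 in T1 RA. T1 and T2 DCA_CF without SL were the only neighbours in the order of the means whose libraries overlapped. GAD1 ranked 77th of 57423 genes in T1 ULO with SL and 3167th in T2 RA.

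The low oxygen regimes were compared with RA in each of 4 states. Oxygen level and any other setting that differs between the regimes cannot be told apart. Differences are of mean log2(FPKM + 1), which understates changes of low genes, and a gene was called at a Benjamini-Hochberg adjusted p under 0.05 over all genes. Between 44.7% and 69.4% of the genes tested passed in these 8 comparisons, so a call by itself sets no gene apart. The share of all genes whose libraries do not overlap was not counted, so a lack of overlap sets none apart either. The ULO and DCA_CF comparisons of a state share the same 3 RA libraries. Nothing in the labels says that libraries of a group came from separate fruit lots, so the spread between them may be partly technical. The p-values set each difference against this spread, estimated per gene and shared by all 12 groups.

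At T1 without SL, 2 of the 3 genes passed in ULO, where 62.4% of genes tested did. GLB1 rose by 2.13 ± 0.0696 on the log2 scale (SE, limma adjusted p = 1.87e-20), 4.39 times the RA level in FPKM. GAD1 rose by 1.21 ± 0.0269 (limma adjusted p = 2.5e-24). ADH1-1 did not pass, at -0.04 ± 0.0736 (limma adjusted p = 0.696), and the sign of this small difference changed with the scaling of the libraries. In DCA_CF all 3 genes passed, beside 67.8% of genes tested. ADH1-1 rose by 1.04 and stood at 2.07 times RA, GLB1 rose by 1.78 and GAD1 by 0.78.

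In the T1 groups with SL, all 3 genes passed in both regimes, beside 50% of genes in ULO and 46.2% in DCA_CF. The fermentation and haemoglobin genes were lower than in RA and GAD1 was higher. In ULO, ADH1-1 differed by -3.39 and GLB1 by -3.60 on the log2 scale, and RA held 14.4 and 12.7 times the ULO levels. GAD1 was 2.69 higher, 6.51 times RA. In DCA_CF the differences were -1.17 for ADH1-1, -1.76 for GLB1 and 2.34 for GAD1.

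At T2 without SL, all 3 again passed in both regimes, beside 68.6% of genes in ULO and 69.4% in DCA_CF. GAD1 was 3.62 higher in ULO and 3.27 higher in DCA_CF, or 12.5 and 9.85 times RA. These widest gaps of GAD1 came with the lowest RA level, 40.6 ± 1.71 FPKM (SD, n = 3). GLB1 differed by -3.14 in ULO and -3.34 in DCA_CF, so that RA held 8.93 and 10.3 times the low oxygen levels. ADH1-1 differed by -2.11 and -1.96.

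At T2 with SL, all 3 passed once more, beside 44.7% of genes in ULO and 46.9% in DCA_CF. ADH1-1 differed by -4.24 in ULO and -4.38 in DCA_CF, larger than the change of 99.4% of genes tested in either comparison. GLB1 differed by -3.24 and -3.81, and GAD1 by 1.70 and 1.83. Each called difference of the 3 genes between low oxygen and RA kept its call and direction under the alternatives tried.

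**Figure D2:**
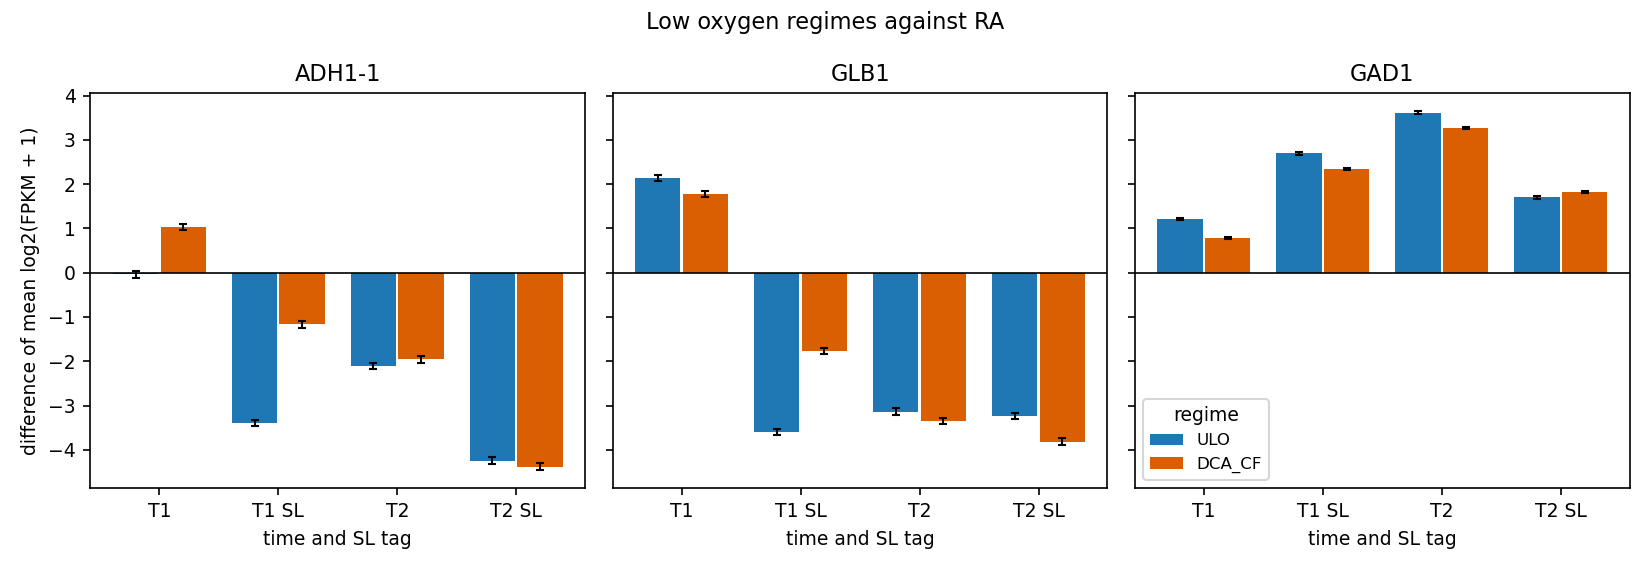
Bars are differences of mean log2(FPKM + 1) of ULO or DCA_CF from RA in each combination of time and SL tag, 3 libraries a group, with the standard error of the limma fit as error bars. GAD1 lies above 0 in all 8 comparisons, while ADH1-1 and GLB1 lie below 0 in all but the T1 comparisons without SL.

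The low oxygen regimes were also set against each other, DCA_CF below 1% oxygen and ULO at 1%. Here too the differences are between regimes, and the part of oxygen in them was not tested. At T1 without SL, all 3 genes passed, beside 40.9% of genes tested. ADH1-1 was 1.07 higher in DCA_CF than in ULO (limma adjusted p = 2.54e-12), whereas GLB1 was lower, at -0.36 (limma adjusted p = 0.000139), and GAD1 was lower, at -0.44. The alcohol dehydrogenase gene was thus higher in DCA_CF and the other pair higher in ULO. In the T1 SL groups all 3 passed, beside 31.3% of genes. ADH1-1 was 2.23 and GLB1 1.84 higher in DCA_CF, 6.19 and 3.72 times ULO, and GAD1 differed by -0.35.

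At T2 without SL, 2 of the 3 passed, beside 23% of genes tested. GAD1 differed by -0.35 and GLB1 by -0.20 (limma adjusted p = 0.0329). The call on GLB1 was lost when any of 5 of the 6 libraries compared was left out, with -0.11 without DCA_CF replicate a. ADH1-1 did not pass, at 0.16 ± 0.0736 (SE, limma adjusted p = 0.141). With SL at T2, 2 of the 3 passed, beside 3.69% of genes, a far smaller background than in the other comparisons. GLB1 was lower in DCA_CF, at -0.57 (limma adjusted p = 3.04e-06), and GAD1 was higher by 0.12 (limma adjusted p = 0.00528). ADH1-1, near 0 in both, was at -0.14 (limma adjusted p = 0.444). In a fit of the compared libraries alone, none of these T2 differences of GLB1 passed, nor did that of GAD1 with SL, whose call was also lost under RLE and upper quartile scaling.

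Libraries with the SL tag were compared with those without it inside each regime. All 3 genes passed in each of the 6 comparisons, beside 61.6% of genes in RA, 65.3% in ULO and 66.8% in DCA_CF at T1, and 58.8%, 61.8% and 62.2% at T2. ADH1-1 and GLB1 were lower with SL in 6 of 6 comparisons. GAD1 was higher in 5 of 6 and lower in RA at T1.

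GLB1 changed most in ULO at T1, from 1275 to 18.9 FPKM, a log2 difference of -6.01 and a ratio of 67.5. That difference was larger than the change of 99.9% of genes tested. In DCA_CF at T1 it was -3.81. In RA at T1 it was -0.27 (limma adjusted p = 0.00147), a call lost under upper quartile scaling. At T2 GLB1 differed by -1.51 in RA, -1.62 in ULO and -1.99 in DCA_CF, a much narrower range than at T1.

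ADH1-1 differed with SL by -0.80 in RA, -4.16 in ULO and -3.00 in DCA_CF at T1. At T2 the differences were -1.71, -3.84 and -4.13. The gene was thus lower with SL everywhere, and the gap was wider in the low oxygen regimes than in RA at both times. GAD1 differed at T1 by -0.83 in RA, 0.65 in ULO and 0.74 in DCA_CF. At T2 it rose by 2.02 in RA, 4.13 times the level without SL, and by 0.58 in DCA_CF. Its rise of 0.11 in ULO at T2 (limma adjusted p = 0.00122) turned to -0.02 when libraries were scaled to a total of 1000000.

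**Figure D3:**
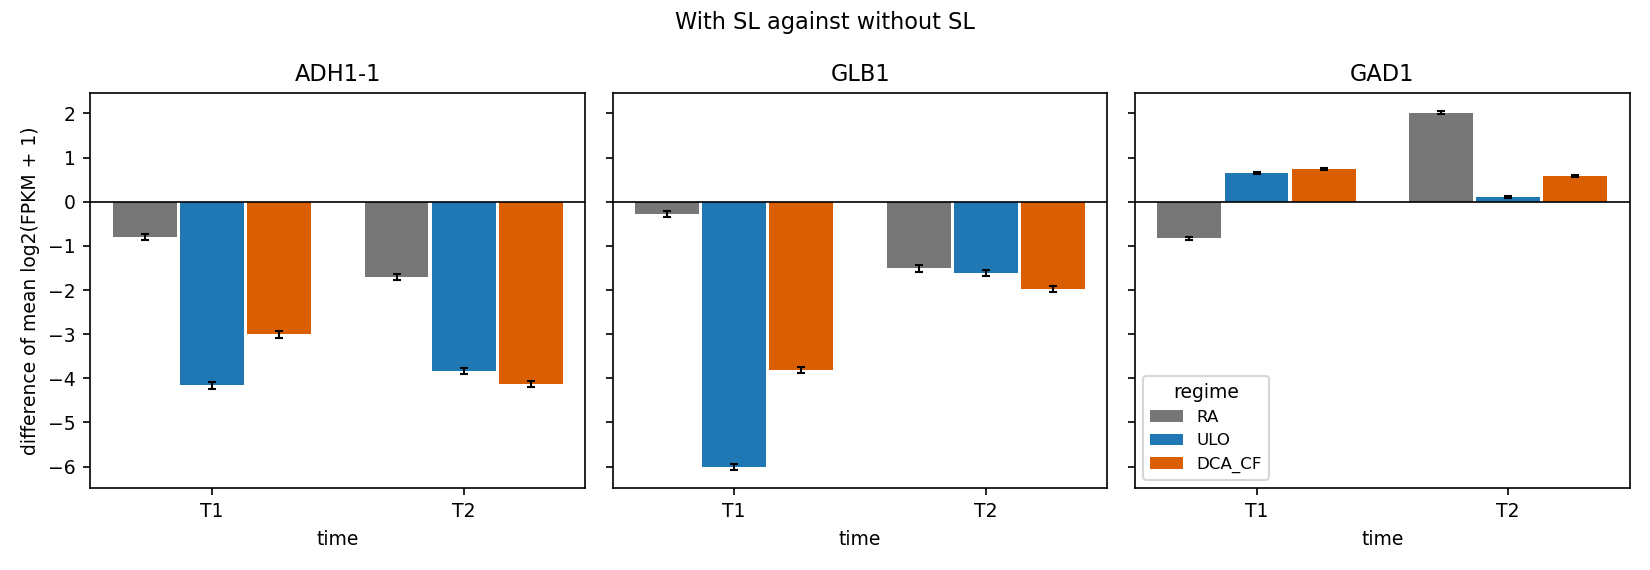
Bars are differences of mean log2(FPKM + 1) between libraries with and without SL in each regime and time, 3 libraries a group, with the standard error of the limma fit as error bars. ADH1-1 and GLB1 lie below 0 throughout, with the deepest bar at -6.01 for GLB1 in ULO at T1, and GAD1 lies below 0 in RA at T1 alone.

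Whether the SL response differed between low oxygen and RA was tested as an interaction. At T1 all 3 genes passed, beside 51.2% of genes for ULO and 59% for DCA_CF. The interaction of GLB1, its SL response in low oxygen minus that in RA, was -5.74 ± 0.0984 (SE) for ULO and -3.54 for DCA_CF. For ADH1-1 the interactions were -3.36 and -2.20, and for GAD1 1.48 and 1.57. At T2, 2 of 3 passed for ULO, beside 56% of genes, and 3 of 3 for DCA_CF, beside 56.6%. GAD1 then had interactions of -1.91 and -1.44, the opposite sign to T1, and ADH1-1 of -2.13 and -2.43. GLB1 was at -0.10 (limma adjusted p = 0.388) for ULO, with a sign that depended on the scaling, and at -0.47 for DCA_CF, a call lost under RLE and upper quartile scaling.

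The T2 libraries were also compared with those of T1 inside each regime. Without SL, all 3 genes passed in RA, beside 48.6% of genes, and 2 of 3 in ULO and in DCA_CF, beside 65.2% and 69.2%. In RA, GLB1 rose by 0.80 and ADH1-1 by 0.31 (limma adjusted p = 0.00102, lost with a pseudocount of 0.1), while GAD1 differed by -2.44, from 225 to 40.6 FPKM. In ULO, GLB1 differed by -4.47 and in DCA_CF by -4.32, so that T1 held 22.6 and 20.3 times the T2 level. ADH1-1 differed by -1.77 in ULO and -2.69 in DCA_CF. GAD1 did not pass in either, at -0.04 (limma adjusted p = 0.175) in ULO and 0.05 (limma adjusted p = 0.115) in DCA_CF. Under RLE and upper quartile scaling GAD1 was called lower at T2 in both, at -0.19 to -0.20, so no direction is drawn.

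With SL, all 3 genes passed over time in RA, beside 35.5% of genes, 2 of 3 in ULO, beside 29.7%, and all 3 in DCA_CF, beside 40.7%. ADH1-1 differed by -0.60 in RA, a call lost with a pseudocount of 0.1, by -1.45 in ULO and by -3.81 in DCA_CF. GLB1 differed by -0.45 in RA and -2.50 in DCA_CF, and was at -0.08 (limma adjusted p = 0.437) in ULO. GAD1 rose by 0.41 in RA and differed by -0.58 in ULO. In DCA_CF it was at -0.11 (limma adjusted p = 0.00131), a difference that changed sign under upper quartile scaling.

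The time response was tested against that of RA in the same way. Without SL all 3 genes passed, beside 55.2% of genes for ULO and 61.6% for DCA_CF. Interactions were -5.27 and -5.12 for GLB1, -2.07 and -2.99 for ADH1-1, and 2.40 and 2.49 for GAD1. With SL all 3 passed, beside 25.8% for ULO and 32.9% for DCA_CF. For GLB1 they were 0.36 (limma adjusted p = 0.00624) and -2.05, for ADH1-1 -0.85 and -3.21, and for GAD1 -0.99 and -0.52. The ULO and DCA_CF interactions of a state share their RA libraries.

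ADH1-1 and GLB1 followed each other over the 12 groups, with r = 0.925 (Pearson) and rho = 0.930 (Spearman) between group means of log2(FPKM + 1). Without the 2 groups farthest from the median of ADH1-1, r was 0.921 over 10 groups, and within the 8 low oxygen groups r was 0.909. GAD1 ran against both, with r = -0.540 and rho = -0.755 to ADH1-1, and r = -0.511 and rho = -0.587 to GLB1. The points of a pair of genes come from the same libraries with the same scaling, and these values are a description without a test. The ratio of GLB1 to ADH1-1, both per length, was 4.66 in T1 RA, 21.0 in T1 ULO and 2.56 in T2 DCA_CF, so the pair did not keep a fixed proportion. It reached 73.8 in T2 DCA_CF with SL, where ADH1-1 was close to 0.

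**Figure D4:**
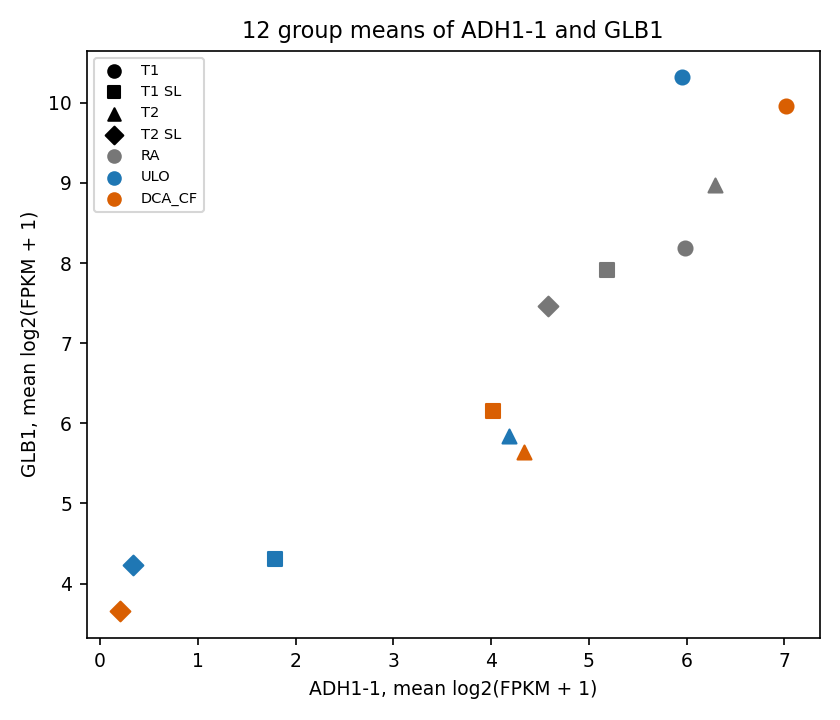
Each point is a group mean of log2(FPKM + 1) over 3 libraries, with ADH1-1 on the horizontal and GLB1 on the vertical axis, coloured by regime and shaped by time and SL tag. The 12 means rise together (r = 0.925), and the T1 ULO group stands above the others at a similar ADH1-1 level.

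The genes most like ADH1-1 over the 12 group means were LOC103413061 (r = 0.999), LOC103442992 (r = 0.987) and LOC103431360 (r = 0.984). They were sought among 24255 genes whose group means spanned at least 2-fold on the log2(FPKM + 1) scale. LOC103413061, unnamed here, stood at 1.23 to 1.53 times the ADH1-1 level in 11 groups and at 0.796 times in T2 ULO with SL, where both were close to 0. Whether reads are shared between these genes was not tested. Among 504 named genes the most alike were the ribosomal RNA gene 26rrn (r = 0.943), GLB1, the lipoxygenase gene LOX1c (r = 0.919), the gibberellin receptor gene GID1a (r = 0.912) and AP2D36 (r = 0.904), an AP2 domain factor. LOX1c differed from ADH1-1 at T1, at 50.3 ± 4.61 FPKM (SD, n = 3) in RA and 21.2 ± 0.213 in ULO.

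For GLB1 the most alike were LOC103453931 (r = 0.991), LOC103404664 (r = 0.989) and LOC103417262 (r = 0.988). LOC103417262 was uneven between libraries, at 10.3 ± 7.94 FPKM (SD, n = 3) in T1 RA and 18.1 ± 10.0 in T2 RA. Its r was 0.946 over the 36 libraries. Among named genes they were the zinc finger gene C2H2L20 (r = 0.973), the NAC domain factor NAC19 (r = 0.961), the mitochondrial gene nad6 (r = 0.950), OSC3 (r = 0.946) and the mitochondrial gene atp1 (r = 0.936). NAC19 stood at 21.1 ± 1.57 FPKM (SD, n = 3) in T1 ULO, 9.88 ± 0.897 in T1 RA and 1.60 ± 0.194 in T1 ULO with SL. It thus had the T1 peak in low oxygen and the low level with SL that GLB1 had.

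For GAD1 they were LOC103416376 (r = 0.983), LOC103449898 (r = 0.974) and LOC103451654 (r = 0.968). LOC103416376 was uneven between RA libraries, and r was 0.768 over the 36 libraries. The named genes were MALD3 (r = 0.916), the ethylene response factor gene ERF1 (r = 0.914), GDSL (r = 0.883), GATA5 (r = 0.881) and the O-methyltransferase gene OMT6 (r = 0.868). ERF1 stood at 171 ± 3.92 FPKM (SD, n = 3) in T2 RA and 1885 ± 27.4 in T1 ULO with SL, and like GAD1 it was lowest in T2 RA. Its highest mean was 1928 ± 34.2 FPKM in T2 DCA_CF with SL, whereas GAD1 was highest in T1 ULO with SL. An r over 0.9 was reached by 258 genes with ADH1-1, 315 with GLB1 and 103 with GAD1. These were 1.06%, 1.30% and 0.42% of the genes searched. Such an r thus sets no pair apart by itself, and GDSL, GATA5 and OMT6 lay below it.

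GAD1 has relatives and neighbours in the GABA pathway. The 6 other genes listed were the glutamate decarboxylases GAD2 and GAD3, the GABA transaminases GABA-T1 and GABA-T2, which break GABA down, and the aminoaldehyde dehydrogenases AMADH1 and AMADH2, which can make GABA from polyamine breakdown products. All 6 were tested. No gene of the table was named as a pyruvate decarboxylase, lactate dehydrogenase or alternative oxidase, so those steps were not followed.

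Neither of the other decarboxylase genes followed GAD1. GAD2 stood at 29.8 FPKM in T1 RA and 32.1 FPKM in T2 RA, and was lower in ULO at 22.1 and 11.5 FPKM. It fell with SL in every regime, to between 3.20 and 10.9 FPKM. GAD3 was listed at 3.50 ± 0.320 FPKM (SD, n = 3) in T1 RA and 9.42 ± 0.369 in T2 RA, at 0 in all libraries of 7 of the 8 low oxygen groups, and at no more than 0.582 FPKM in any other library. GAD1 made up 49.4% of the summed FPKM of the 3 decarboxylases in T2 RA and 87.1% in T1 RA. In the other 10 groups its share was 93.4% to 99.5%. T2 RA was the group where GAD2 came closest to GAD1, with GAD1 at 1.27 times its level.

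Against RA at T1 without SL, 4 of the 6 were higher and 2 lower in ULO, with a median log2 difference of 0.20 against 0.03 over all genes. In DCA_CF 4 were higher, 1 lower and 1 not called, with medians of 0.24 and -0.03. Of all genes, 62.4% and 67.8% were called in these comparisons. GAD2 in DCA_CF, not called here, was called lower without RA replicate a, at -0.16, or without DCA_CF replicate b, at -0.15. AMADH2 rose most, from 38.2 ± 1.11 FPKM (SD, n = 3) in RA to 87.0 ± 1.92 under ULO and 83.2 ± 0.834 under DCA_CF, and GABA-T1 went from 42.5 to 59.97 and 58.5 FPKM. Among the T1 SL groups, 0 of 6 were higher and 4 lower in ULO, and 2 were higher and 4 lower in DCA_CF, beside 50% and 46.2% of all genes called in either direction. The median log2 differences of the 6 were -0.39 and -0.30 (all genes 0 and 0.09). GABA-T1 in ULO, not called here, was called higher under upper quartile scaling, at 0.13. GAD3 in ULO, also not called, was called lower with a pseudocount of 0.1, at -0.75, and without RA replicate c, at -0.17. AMADH2 was then at 100.2 FPKM in RA and at 50.4 and 52.5 FPKM in ULO and DCA_CF, the reverse order. The 2 higher in DCA_CF were GAD2 and GAD3, the latter at 0.489 to 0.582 FPKM.

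At T2 without SL, 2 of the 6 were higher, 3 lower and 1 not called in either regime, beside 68.6% and 69.4% of all genes called. Their median log2 differences were -0.15 in ULO and -0.08 in DCA_CF (all genes 0.20 and 0.24). AMADH1, not called here, was called lower in both regimes under RLE scaling, at -0.20 in each. GABA-T2 and AMADH2 were the higher pair. The rise of GABA-T2 in ULO, 0.31 on the log2 scale, was not called under RLE scaling. With SL at T2, 1 was higher and 3 were lower in either regime, beside 44.7% and 46.9% of all genes called. Their medians were -0.35 in ULO and -0.46 in DCA_CF (all genes -0.03 in both). AMADH1, not called here, was called higher in both regimes under upper quartile scaling, at 0.23 and 0.18, and in ULO under RLE scaling, at 0.12. GABA-T2 stood at 55.4 ± 0.697 FPKM (SD, n = 3) in RA, while ULO held 17.7 ± 0.432 and DCA_CF 18.7 ± 0.826. GABA-T1 was the higher gene, at 91.1 and 91.0 FPKM against 79.0 in RA. GAD1 was higher in all of these comparisons, while no other gene of the list was.

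With SL in RA, both GABA-T genes and both AMADH genes rose at T1 and at T2, and GAD2 and GAD3 fell, so that 4 of 6 were higher and 2 lower, beside 61.6% and 58.8% of all genes called. The medians of the 6 were 0.63 and 0.53 (all genes -0.07 and -0.03). AMADH2 went from 38.2 to 100.2 FPKM at T1 and from 41.4 to 120.0 FPKM at T2. In ULO the counts were 1 higher and 3 lower at T1, and 3 higher and 2 lower at T2. In DCA_CF they were 2 higher and 3 lower at both times. Of all genes, 65.3% and 61.8% were called in ULO and 66.8% and 62.2% in DCA_CF. The medians of the 6 were -0.12 and 0.07 in ULO (all genes -0.10 and -0.21) and -0.09 and -0.11 in DCA_CF (all genes 0.07 and -0.24). These counts depended on the scaling. AMADH1 in ULO at T1 lost its call under RLE and upper quartile scaling. AMADH2 in ULO at T2 lost its call when libraries were scaled to a total, and AMADH2 in DCA_CF at T2, at -0.23, was called higher under upper quartile scaling, at 0.14. GABA-T2 in ULO at T1, not called here, was called lower when scaled to a total, at -0.19. GABA-T1 rose with SL in all 6 comparisons, though its rise of 0.13 in DCA_CF at T1 was not called under the 3 other scalings. AMADH1 stayed between 51.5 and 68.1 FPKM in all 12 groups.

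**Figure D5:**
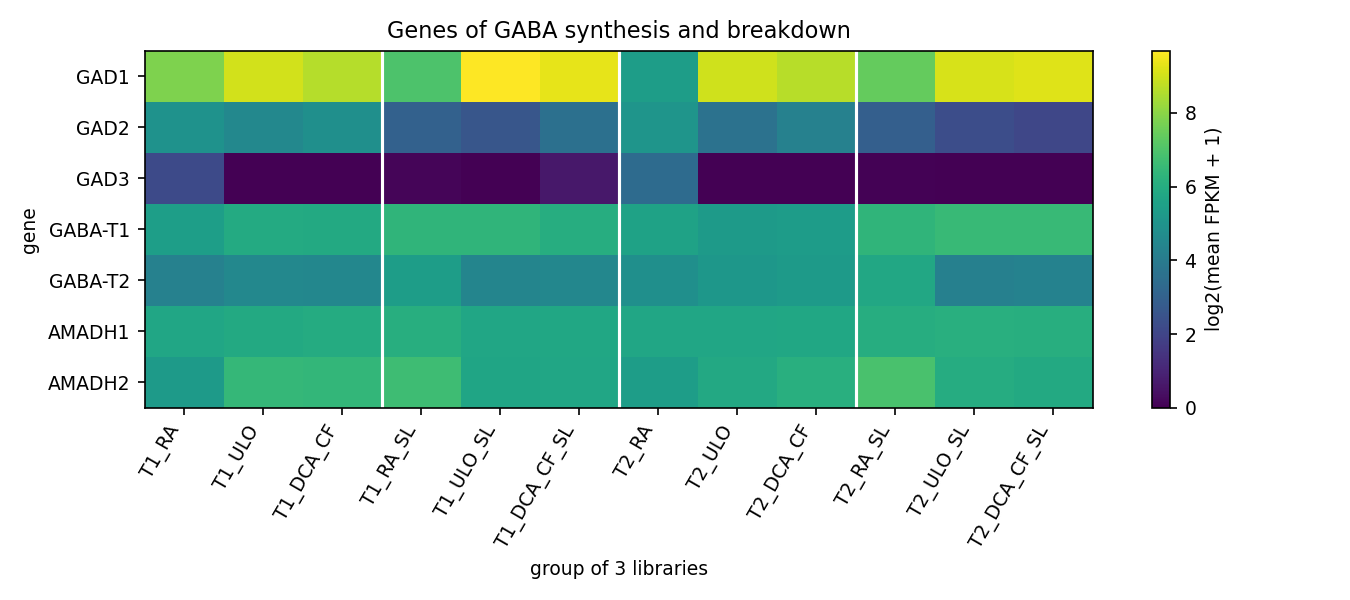
Colour gives log2(mean FPKM + 1) of each gene of GABA synthesis and breakdown in the 12 groups of 3 libraries, with white lines between the combinations of time and SL tag. GAD1 is lowest in T2 RA at 40.6 FPKM, and GAD3 is above 1 FPKM in the RA groups without SL alone.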

How the data were processed

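Peel RNA was made into non-directional libraries and read as single 100-bp reads on an Illumina HiSeq, per the labels' protocols. HISAT2, StringTie and DESeq2 are listed, without version, per the submitters' processing notes. The genome build is not given in the sources used here, so no coordinates are printed, and without strand antisense reads cannot be told apart. The values deposited by the authors are read as FPKM, since they are not whole although the sheet is named for counts. An incomplete TPM table would look the same. DCA_CF columns lack the letters CF and were matched to titles by time, SL tag and replicate letter. All 3 genes were found in a RefSeq gene table, used for names only.

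Values were taken as log2(FPKM + 1). The filter for low values asked for 1 FPKM or more in 3 or more libraries, which left 32923 of 57423 genes. With limma 3.58.1 in R 4.3.3, 12 group means were fitted over 36 libraries (eBayes, trend), and 24 pairwise contrasts and 8 interactions were tested at an adjusted p (Benjamini-Hochberg over all genes) under 0.05. As the values are not counts, no count model was used. The code was tested on simulated data.

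The members, lists and tests were chosen with earlier results of these data known. Named genes are the 3 members, the listed genes of the pathway, and per member the 3 genes of all and the 5 named genes with the highest Pearson r over group means. LOX1c, NAC19 and ERF1 were given levels after their values were seen. AMADH1 and AMADH2 entered the list by the letters ADH, sought for alcohol dehydrogenase, and were kept. Of the genes matched by the letters of a symbol, 3 were left out. GalLDH is a galactonolactone dehydrogenase gene by name. For a pair with HB symbols the files do not settle whether they are haemoglobin or homeobox genes, so possible relatives of GLB1 were not followed. Alternatives were another pseudocount, no filter, RLE, upper quartile and total scaling, a replicate block, a fit of only the compared libraries, and omission of each library in turn.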

Additional observations from a re-analysis of the deposited data

Results flagged for a closer look

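For 23 of the 24 interactions of the 3 genes the response in low oxygen differed from that in RA by a test of the difference itself (limma, adjusted over all genes), and these are gathered here as log2 differences. For the SL response at T1, ADH1-1 was at -3.36 for ULO and -2.20 for DCA_CF, GLB1 at -5.74 and -3.54, and GAD1 at 1.48 and 1.57. For the SL response at T2, ADH1-1 was at -2.13 and -2.43, GAD1 at -1.91 and -1.44, and GLB1 at -0.47 for DCA_CF. For the change from T1 to T2 without SL, ADH1-1 was at -2.07 for ULO and -2.99 for DCA_CF, GLB1 at -5.27 and -5.12, and GAD1 at 2.40 and 2.49. For the same change with SL, ADH1-1 was at -0.85 and -3.21, GLB1 at 0.36 and -2.05, and GAD1 at -0.99 and -0.52. The interaction of GAD1 with SL had opposite signs at T1 and T2, and GLB1 with SL was the only gene of the 3 whose interaction over time had opposite signs in ULO and DCA_CF. Whether those signs differ was not tested as such. Between 25.8% and 61.6% of all genes passed the same interaction tests.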

How the results depend on the processing

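Of 96 log2 differences of the 3 genes, 83 kept their direction and their side of the threshold under every alternative, as did 1365 of 1392 alternative values. The other scalings moved the median of all genes by -0.20 to 0.24 (log2), by over 0.1 in 15 contrasts, so differences of that size are uncertain. With a pseudocount of 0.1, ADH1-1 from T1 to T2 in RA was no longer called, at 0.31 without SL and -0.62 with SL. With RLE size factors, GAD1 was at 0.11 (not called) for DCA_CF against ULO at T2 with SL. From T1 to T2 it was at -0.19 in ULO and -0.20 in DCA_CF without SL, now called, and at -0.0060 in DCA_CF with SL. The T2 interactions of GLB1 with SL were then 0.17 for ULO and -0.17 for DCA_CF, not called. With upper quartile scaling, ADH1-1 for ULO against RA at T1 was at 0.015, GAD1 for DCA_CF against ULO at T2 with SL at 0.12 (not called), and GLB1 with SL in RA at T1 at -0.16 (not called). GAD1 from T1 to T2 was at -0.20 in both low oxygen regimes without SL and at 0.069 in DCA_CF with SL, and the T2 interactions of GLB1 with SL were 0.14 and -0.19. Scaled to a total of 1000000, ADH1-1 for ULO against RA at T1 was at 0.012, GAD1 with SL in ULO at T2 at -0.021, and GAD1 from T1 to T2 in DCA_CF without SL at -0.0054. With the compared libraries alone, DCA_CF against ULO at T2 was not called for GLB1, at -0.20 without and -0.57 with SL, nor for GAD1 with SL, at 0.12, and 175 in place of 1216 genes were called with SL, in a fit with fewer samples to estimate the spread. Leaving out each library in turn, GLB1 for DCA_CF against ULO at T2 without SL ranged from -0.28 to -0.11 and lost its call in 5 of 6 cases. Except where stated, the cause was not tested.

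For the 6 other pathway genes, 1053 of 1092 values were unaltered in direction and call. Signs turned for AMADH1 at T2 without SL, at -0.20 in ULO and -0.20 in DCA_CF against RA with RLE and at -0.063 and -0.068 with upper quartile scaling, and at -0.0069 in DCA_CF with SL when scaled to a total. With SL at T1, AMADH1 in ULO was at 0.0089 with upper quartile scaling, and GABA-T2 was at 0.016 and 0.071 in ULO and at -0.050 and -0.052 in DCA_CF with RLE and upper quartile scaling, and at -0.080 in DCA_CF when scaled to a total. AMADH2 with SL in DCA_CF at T2 was at 0.066 and 0.14 with RLE and upper quartile scaling. GABA-T1 in ULO against RA at T1 with SL was at -0.029 when scaled to a total. Leaving out single libraries, AMADH1 against RA at T2 ranged from -0.0029 to 0.047 in ULO without SL and from -0.023 to 0.059 in DCA_CF with SL, GABA-T1 in ULO against RA at T1 with SL from -0.0037 to 0.039, and GABA-T2 with SL in DCA_CF at T1 from -0.033 to 0.027.

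The replicate letters gave no pairing of libraries. Residuals of same-letter libraries from different groups correlated at 0.00292 on average, and none of 198 such pairs passed 0.1. The mean between letters, -0.00146, largely follows from subtracting each group's mean and is no separate comparison. With a replicate block no call of the 3 genes changed, and 20526 in place of 20555 genes were called in ULO against RA at T1 without SL. Depth is unknown, which limits ADH1-1 in the low oxygen regimes at T2 with SL and GAD3 most, both near 0.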
